A study of Mus musculus with 12 samples.

Results

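Bile acid carriers and transporters are the proteins that take bile acids into an intestinal epithelial cell, hold them in its cytosol and pass them out again. Slc10a2, Fabp6, Slc51a, Slc51b, Abcc2, Abcc3 and Abcc4 were chosen by gene symbol for that role and make up 7 of the 32587 gene rows measured. Expression was measured by poly(A) RNA sequencing in 12 libraries of wild-type (WT) mouse small-intestinal organoids, epithelial cultures that the labels place in the duodenum. The 12 libraries form 4 groups of 3, all from cultures in a commercial organoid growth medium. The controls received DMSO (dimethyl sulfoxide, the solvent), and the treated groups received CA (cholic acid), CDCA (chenodeoxycholic acid) or DCA (deoxycholic acid). The dose is labelled 50 mmol/L, a unit that is in doubt because it is very high for a bile acid. The labels give the exposure as 2 days in one field and as 96 hours after 2 days of culture in another. Age, sex and strain of the mice are not given in the labels. Separate cultures or animals within a group are not stated either, so p-values reflect only how these libraries varied, which may be technical.

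In the ileum, the distal small intestine, Slc10a2 imports bile acids across the apical membrane together with sodium, Fabp6 binds them in the cytosol, and the heterodimer of Slc51a and Slc51b releases them across the basolateral membrane to the portal blood. The ATP-driven pumps of the Abcc family also export conjugated bile acids and other organic anions, Abcc2 through the apical membrane and Abcc3 and Abcc4 through the basolateral one. The nuclear bile acid receptor FXR, encoded by Nr1h4, is known to raise Fabp6, Slc51a and Slc51b when a bile acid binds it, through inverted repeats of the motif AGGTCA. CA and CDCA are primary bile acids, made by the host, and DCA is a secondary one that gut bacteria make from CA. CA carries the hydroxyl groups of both of the others, CDCA lacks the hydroxyl at carbon C12, and DCA lacks the one at carbon C7.

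The promoters of the 3 genes with the largest increases are shown because FXR is known to act near their starts. Each is printed 5′ to 3′ on the gene's own strand, from 250 bases before the start to 50 after it, from RefSeq on build GRCm38.p6, which is older than the GRCm39 build of the expression data. Capitals mark matches to AGGTCA and its reverse complement TGACCT with 1 base between them, allowing 2 mismatches at the 12 fixed bases, searched on both strands.
Fabp6, chr11:43601513-43601812, minus strand: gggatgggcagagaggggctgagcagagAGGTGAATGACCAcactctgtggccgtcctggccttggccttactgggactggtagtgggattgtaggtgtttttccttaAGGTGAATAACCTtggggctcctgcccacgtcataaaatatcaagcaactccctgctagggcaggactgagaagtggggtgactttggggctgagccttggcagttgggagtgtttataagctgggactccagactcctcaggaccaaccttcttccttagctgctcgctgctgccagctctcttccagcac
Slc51a, chr16:32487830-32488129, minus strand: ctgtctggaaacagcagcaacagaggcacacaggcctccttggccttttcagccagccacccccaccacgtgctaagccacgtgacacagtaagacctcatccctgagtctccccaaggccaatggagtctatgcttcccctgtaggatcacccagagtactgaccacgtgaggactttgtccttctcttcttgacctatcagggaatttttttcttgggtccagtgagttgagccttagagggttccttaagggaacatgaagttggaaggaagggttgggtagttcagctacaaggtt
Slc51b, chr9:65422724-65423023, minus strand: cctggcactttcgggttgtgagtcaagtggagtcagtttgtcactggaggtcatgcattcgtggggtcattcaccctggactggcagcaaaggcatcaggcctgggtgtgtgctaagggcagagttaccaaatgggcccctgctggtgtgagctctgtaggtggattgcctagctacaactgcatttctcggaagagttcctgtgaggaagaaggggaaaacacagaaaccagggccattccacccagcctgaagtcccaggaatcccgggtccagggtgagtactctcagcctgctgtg
The Fabp6 promoter held 2 such matches, at positions -222 to -210 and -142 to -130 from the start. Counted from 1 at the motif's first base, the upstream match differed from the motif by C5G and T13A and the downstream match by C5G and G9A. A match occurred in 374 of 32851 mouse promoters of the same length (1.14%). No match lay in the promoter windows of Slc51a, Slc51b, Slc10a2, Abcc2 or Abcc4. The same motif repeated in one direction (AGGTCA, 1 base, AGGTCA, up to 2 mismatches, either strand) was in 3.86% of promoters and in none of these windows. TATAAA, searched on both strands, was in 13.6% of promoters, and among these genes only in that of Fabp6, on the strand opposite to the gene at positions -29 to -24. Of the 7 genes, 6 had a promoter sequence in the table and Abcc3 had none. A match is a description of the letters and not a site.

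Expression is given in TPM, a normalised transcript abundance scaled for transcript length and for the total of the library. Tests were run with limma on log2(TPM + 1), a scale that understates the change of low genes, over the 11952 rows that reached 1 TPM in 3 or more libraries, and a gene was called at an adjusted p under 0.05. Slc10a2 did not pass this filter, so 6 of the 7 genes were tested. The libraries summed to 889156 to 936841 TPM and 11464 to 11711 rows reached 1 TPM in each. Read depth is unknown. The duodenal regulator Pdx1 was present at 8.16 to 11.2 TPM in the 12 libraries, and the colon markers Car1 and Aqp8 were at 0 and at most 0.415 TPM. Markers of other cells summed to little: 3.65 to 6.43 TPM for 9 mesenchymal genes, mostly Vim, with Col1a1 at most 1.18, 5.53 to 8.82 TPM for 7 immune genes, with Ptprc at most 0.0636, and 2.29 to 3.60 TPM for 5 endothelial genes, with Pecam1 at most 0.744. The highest single value of the immune genes was 4.32 TPM, for Cd14, and of the endothelial genes 3.32 TPM, for Lyve1. Of 10 hepatocyte markers, Ttr was at 55.1 to 80.9 TPM, Alb at 0.711 to 2.15 TPM, and Slc10a1 at 0 throughout. CDCA library 3 stood apart from the other CDCA libraries: it was the highest of them in Fabp6, Slc51a, Slc51b and Abcc2 and the lowest in Abcc4. Its summed enterocyte markers were also the highest (3996 TPM against 2611 and 2507) and its summed stem cell markers the lowest (401 TPM against 899 and 764).

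All 3 acids raised Fabp6, Slc51a and Slc51b, and DCA moved each of the 6 tested genes. The Slc51a calls with CA and CDCA were near the threshold and were lost in 7 and 13 of 20 alternative fits. DCA raised Fabp6, Slc51a, Slc51b, Abcc2 and Abcc3 and lowered Abcc4. The moderated F test of limma called 6 of 6 for any difference among the 4 groups, with adjusted p from 9.09e-05 (Slc51b) to 0.00797 (Abcc4), where 28.5% of all tested rows were called. With CA, 3 of 6 were called higher, and the background was 0.569% of all tested rows. With CDCA, 3 of 6 were called higher, against a background of 0.51%. With DCA, 5 of 6 were called higher and 1 lower, against backgrounds of 18.8% higher and 19.2% lower. The genes were chosen with earlier results of these data known, so setting these counts beside the backgrounds is a description and not a test. The median difference from DMSO in log2(TPM + 1) over the 6 genes was 2.62 for DCA, 1.71 for CA and 1.33 for CDCA. Over all tested rows it was -0.021, 0.028 and 0.018 in that order. The comparisons with DMSO share their control libraries. Leaving out mitochondrial and rRNA rows and rescaling moved the median of all rows with DCA to -0.15 and the share of calls that were higher from 49.4% to 29.5%. With CDCA that share went from 85.9% to 73.8%, and to 68.2% with median-ratio scaling, and no member called in these comparisons changed direction.

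**Figure D1:**
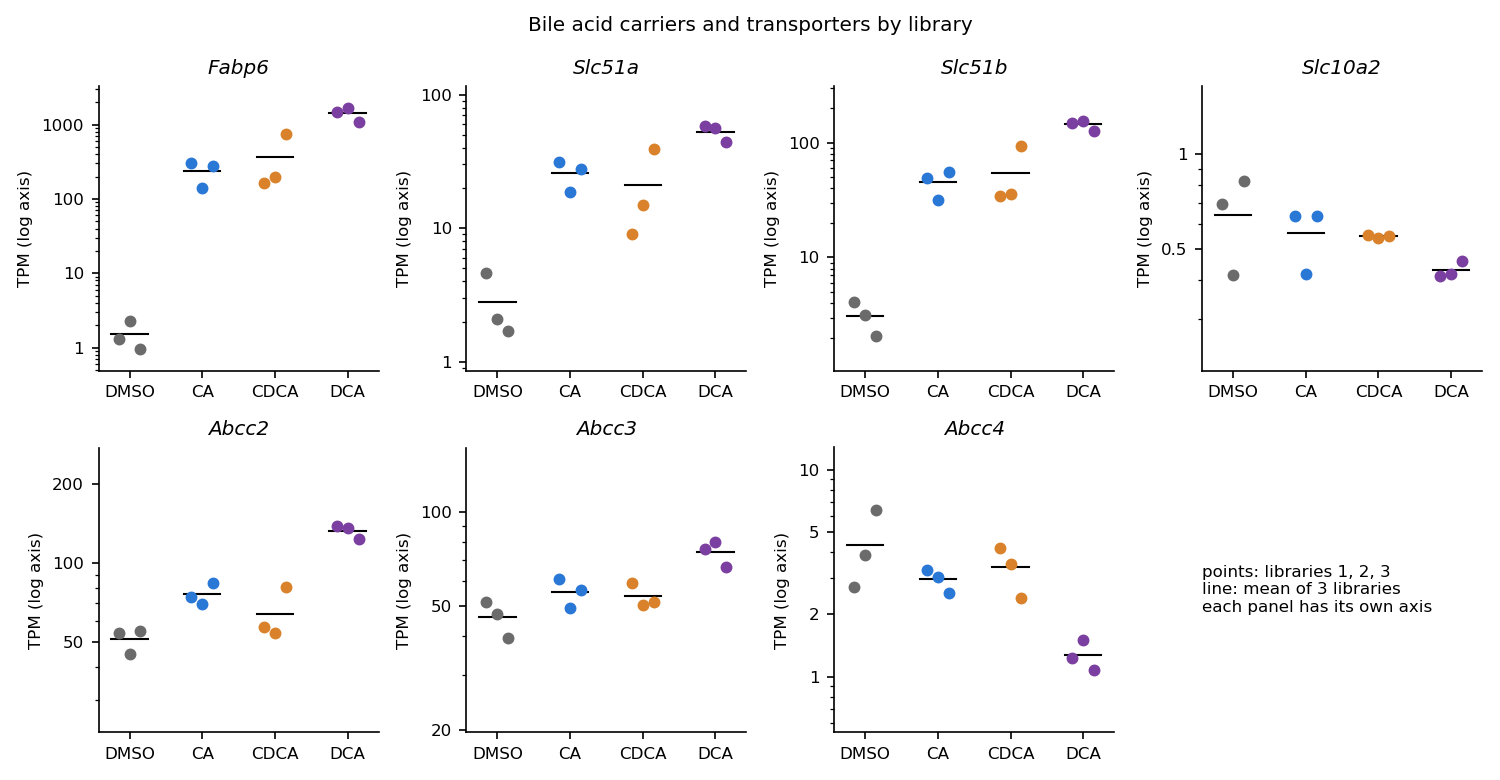
TPM of the 7 genes in each of the 12 libraries, on log axes that differ between panels, with points for libraries and lines for group means. In DCA, Fabp6 sits between 1100 and 1653 TPM and Abcc4 between 1.07 and 1.50 TPM, and neither range overlaps that of another group.

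Slc10a2, the apical importer, was below 1 TPM in every library. It stood at 0.694, 0.415 and 0.822 TPM in DMSO, 0.636, 0.418 and 0.639 TPM in CA, 0.554, 0.545 and 0.550 TPM in CDCA, and 0.412, 0.418 and 0.458 TPM in DCA. The group means fell in the order DMSO, CA, CDCA and DCA, but every acid's range overlapped that of DMSO. An exact permutation test of log2 TPM over the 12 libraries and 4 groups gave p = 0.305 (0.305 adjusted over 3 such tests). Without the filter, limma put DCA at -0.19 relative to DMSO (95% CI -0.42 to 0.037, adjusted p = 0.231), CA at -0.067 (adjusted p = 0.865) and CDCA at -0.077 (adjusted p = 0.924). The DCA range lay below the CDCA range, with an exact permutation p of 0.1, the smallest that 3 against 3 libraries allow. In the DMSO group Slc10a2 ranked 12146 of 32587 rows by mean TPM. Its known or proposed regulators were measured well above it. Of 11, all were tested. DCA raised 5 and lowered 2, and 0 were called with CA or CDCA. Over all tested rows, 18.8% were called higher and 19.2% lower with DCA. With CA and CDCA, 0.569% and 0.51% were called higher. Among these regulators Ppara, a nuclear receptor for fatty acids, rose by 1.25 with DCA (limma adjusted p = 0.00439). Gata6, a factor of the intestinal epithelium, rose by 0.61 (limma adjusted p = 0.00209). The caudal homeobox factors Cdx1 and Cdx2, which set intestinal identity, fell by 0.28 and 0.30 (limma adjusted p = 0.0126 and 0.0182).

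Fabp6, the cytosolic bile acid binding protein of the ileum, showed the largest change of the 7. In DMSO it was at 1.30, 2.31 and 0.971 TPM. In CA it was at 306, 138 and 276 TPM, and in CDCA at 164, 197 and 755 TPM. In DCA it reached 1481, 1653 and 1100 TPM. Every library with an acid lay above every DMSO library, the DCA libraries lay above all others, and the CA and CDCA ranges overlapped. The mean rose from 1.53 ± 0.701 TPM in DMSO (SD, n = 3) to 239.9 ± 89.1 with CA, 372 ± 332 with CDCA and 1411 ± 283 with DCA, or 157, 244 and 924 times the DMSO mean. In limma the difference in log2(TPM + 1) was 6.53 with CA (95% CI 5.30 to 7.76, adjusted p = 0.00466), 6.89 with CDCA (CI 5.65 to 8.12, adjusted p = 0.000705) and 9.14 with DCA (CI 7.91 to 10.38, adjusted p = 1.81e-05). Ranked by mean TPM among 32587 rows, Fabp6 moved from 11140 in DMSO to 429 in CA, 278 in CDCA and 122 in DCA. Without CDCA library 3 the CDCA difference was 6.20 (limma adjusted p = 4.2e-05).

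The basolateral exporter works only as a dimer, with Slc51a as the transporting subunit and Slc51b as its partner, which is needed for the complex to reach the membrane. Slc51a was at 4.64, 2.09 and 1.71 TPM in DMSO, 31.0, 18.6 and 28.0 TPM in CA, 9.09, 15.0 and 38.8 TPM in CDCA, and 57.9, 56.4 and 44.0 TPM in DCA. All acid libraries lay above the DMSO libraries and all DCA libraries above the rest, with CDCA spread most widely. The limma difference was 2.86 with CA (95% CI 1.88 to 3.85, adjusted p = 0.026), 2.36 with CDCA (CI 1.38 to 3.35, adjusted p = 0.0492) and 3.89 with DCA (CI 2.90 to 4.87, adjusted p = 0.000155). The calls for CA and CDCA were close to the threshold. Leaving out any CA library, DMSO library 2 or 3, or DCA library 1 or 2 lost the CA call, at 2.66 to 3.08 and adjusted p of 0.0514 to 0.148. The CDCA call was lost on leaving out any library other than CDCA library 1 or 3, at 2.16 to 2.68 and adjusted p of 0.0517 to 0.139. The CDCA call was also lost without the filter (0.0795), with the replicate block (0.0946) and in a fit of only the 6 libraries compared (0.464). The DCA call held in each of the 20 alternatives.

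Slc51b was at 4.11, 3.13 and 2.06 TPM in DMSO, 49.1, 31.8 and 55.7 TPM in CA, 34.1, 35.7 and 93.2 TPM in CDCA, and 149, 155 and 127 TPM in DCA. The groups separated as those of Slc51a did: DMSO lowest, DCA highest, CA and CDCA overlapping between them. The limma difference was 3.50 with CA (95% CI 2.73 to 4.27, adjusted p = 0.00466), 3.63 with CDCA (CI 2.85 to 4.40, adjusted p = 0.000724) and 5.17 with DCA (CI 4.40 to 5.94, adjusted p = 1.42e-05). All 3 calls held in each of the 20 alternatives. Both subunit genes overlap a gene on the opposite strand, and the strand setting of quantification is not given in the labels. Pcyt1a, which overlaps Slc51a, had mean levels of 14.5, 18.5, 15.2 and 22.2 TPM in DMSO, CA, CDCA and DCA, and Rasl12, which overlaps Slc51b, had 0.0572, 0.401, 0.543 and 1.08 TPM.

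The subunits did not keep a fixed ratio. The ratio of Slc51b to Slc51a TPM was 0.886, 1.50 and 1.20 in DMSO, 1.58, 1.71 and 1.99 in CA, 3.76, 2.38 and 2.40 in CDCA, and 2.58, 2.75 and 2.89 in DCA. Every acid library was above every DMSO library, and the CDCA and DCA libraries were above the CA ones. In DMSO both subunits were low, Slc51a at 1.71 to 4.64 TPM and Slc51b at 2.06 to 4.11 TPM. At unknown depth the precision of the DMSO ratios cannot be stated, and any part of the overlapping genes in the ratio was not tested. An exact permutation test of the log2 ratio over 369600 arrangements of the 12 libraries gave p = 0.000779 (0.00234 adjusted over 3 such tests), and p was 0.000649 to 0.00292 on leaving out each library in turn. Between any pair of groups, 3 against 3 libraries cannot give an exact p below 0.1, which each acid reached against DMSO and which CDCA and DCA also reached against CA. The ratio of Fabp6 to Slc51b TPM was 0.509 ± 0.214 in DMSO, 5.18 ± 0.958 with CA, 6.15 ± 1.73 with CDCA and 9.73 ± 1.01 with DCA (mean ± SD over 3 libraries), and was not tested.

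**Figure D2:**
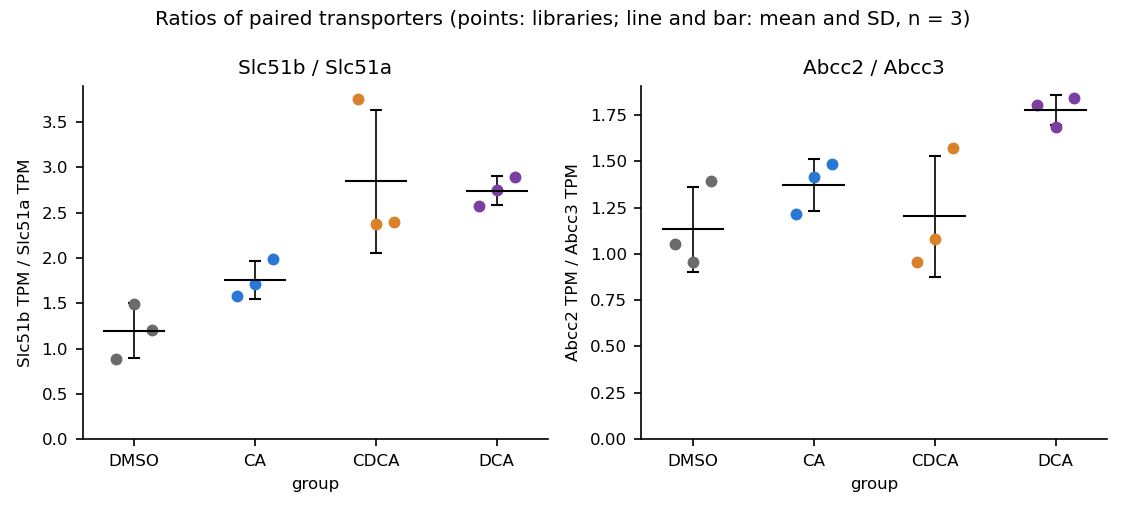
Ratio of Slc51b to Slc51a TPM (left) and of Abcc2 to Abcc3 TPM (right) in each library, with mean and SD of 3 libraries and axes from 0. The subunit ratio is 0.886 to 1.50 in DMSO and 2.58 to 2.89 in DCA; the pump ratio is 0.954 to 1.39 in DMSO and 1.69 to 1.84 in DCA.

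Abcc2, the apical pump, was among the more abundant of these genes without any acid. It was at 54.1, 45.0 and 54.8 TPM in DMSO, 74.0, 69.5 and 83.7 TPM in CA, 56.8, 54.2 and 80.7 TPM in CDCA, and 138, 136 and 123 TPM in DCA. The DCA libraries were above all others, the CA libraries above DMSO, and CDCA overlapped both DMSO and CA. DCA raised Abcc2 by 1.35 (95% CI 1.05 to 1.65, limma adjusted p = 4.35e-05). CA gave 0.55 (CI 0.26 to 0.85, adjusted p = 0.0945) and CDCA 0.29 (CI -0.0037 to 0.59, adjusted p = 0.52), neither called. Without CDCA library 3 the CA difference of 0.55 was called (limma adjusted p = 0.0152). A neighbouring row, Gm10768, held the same values as Abcc2 in all 12 libraries, so how reads were shared between them is uncertain.

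Abcc3, a basolateral pump, started at a similar level and changed less. It was at 51.5, 47.2 and 39.4 TPM in DMSO, 61.0, 49.2 and 56.4 TPM in CA, 59.3, 50.2 and 51.4 TPM in CDCA, and 76.3, 80.3 and 66.8 TPM in DCA. Only the DCA libraries were clear of the DMSO range. DCA raised Abcc3 by 0.69 (95% CI 0.43 to 0.94, limma adjusted p = 0.000747), while CA gave 0.27 (CI 0.014 to 0.52, adjusted p = 0.317) and CDCA 0.22 (CI -0.033 to 0.48, adjusted p = 0.623). The ratio of Abcc2 to Abcc3 was 1.13 ± 0.229 in DMSO, 1.37 ± 0.140 with CA, 1.20 ± 0.325 with CDCA and 1.78 ± 0.0800 with DCA (mean ± SD over 3 libraries), and an exact permutation test over the 4 groups gave p = 0.053 (0.0795 adjusted over 3 tests).

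Abcc4, the other basolateral pump, went the opposite way. It was at 2.71, 3.90 and 6.42 TPM in DMSO, 3.30, 3.04 and 2.53 TPM in CA, 4.21, 3.52 and 2.41 TPM in CDCA, and 1.23, 1.50 and 1.07 TPM in DCA. The DCA libraries were below all others, and the CA and CDCA ranges overlapped the wide DMSO range. DCA lowered Abcc4 by a log2 difference of -1.18 (95% CI -1.67 to -0.69, limma adjusted p = 0.0015), a call that held in each of the 20 alternatives. CA gave -0.38 (CI -0.87 to 0.11, adjusted p = 0.464) and CDCA -0.25 (CI -0.74 to 0.24, adjusted p = 0.828).

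Summed over the 7 genes, the level was 109.8 ± 8.11 TPM in DMSO (SD, n = 3), 446 ± 118 with CA, 569 ± 393 with CDCA and 1816 ± 319 with DCA. Each exact permutation test against DMSO gave p = 0.1, the smallest that 3 against 3 libraries allow. Fabp6 made up 1.41% of this sum in DMSO, 52.5% in CA, 59.7% in CDCA and 77.5% in DCA. Abcc2 and Abcc3 led in DMSO, with 46.8% and 41.9%. Without Fabp6 the sums were 108, 206, 197 and 405 TPM.

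The acids were compared in 3 pairs at the same labelled dose and time, with p-values adjusted over all tested rows within each pair. CDCA and CA differ by the hydroxyl that CDCA lacks, and none of the 6 genes was called between them, where the background was 0.0335% of rows, or 4 genes (861 with an unadjusted p under 0.05). The differences of CDCA from CA were 0.36 for Fabp6 (95% CI -0.88 to 1.59), -0.50 for Slc51a (CI -1.48 to 0.48), 0.13 for Slc51b (CI -0.64 to 0.90), -0.26 for Abcc2 (CI -0.56 to 0.037), -0.047 for Abcc3 (CI -0.30 to 0.21) and 0.13 for Abcc4 (CI -0.36 to 0.62). The intervals of Fabp6, Slc51a and Slc51b are wide, so these data cannot tell differences of that size from 0. Without CDCA library 3 the sign turned for Fabp6 (-0.33) and Slc51b (-0.34), both still uncalled in limma.

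DCA and CA differ by the hydroxyl that DCA lacks. Relative to CA, DCA was called higher in 4 of the 6 genes and lower in 1, against backgrounds of 5.79% higher and 8.94% lower. Fabp6 was higher by 2.61 (95% CI 1.38 to 3.85, limma adjusted p = 0.0165), Slc51b by 1.67 (CI 0.90 to 2.44, adjusted p = 0.0125), Abcc2 by 0.80 (CI 0.50 to 1.09, adjusted p = 0.00489) and Abcc3 by 0.42 (CI 0.17 to 0.67, adjusted p = 0.0329). Abcc4 was lower, at -0.80 (CI -1.29 to -0.31, adjusted p = 0.0336). Slc51a differed by 1.02 (CI 0.039 to 2.01, adjusted p = 0.148) and was not called, although its DCA and CA libraries did not overlap. The Abcc2 call held in each of the 20 alternatives. The calls for Fabp6 and Slc51b were lost without CA library 2 or DCA library 1 or 2, at adjusted p of 0.0605 to 0.0689 and 0.0513 to 0.0552. That for Abcc3 was lost without CA library 2 or 3 or DCA library 1 or 2 (0.0743 to 0.138), without the filter (0.0642) and without mitochondrial and rRNA rows (0.0506). That for Abcc4 was lost on leaving out any CA or DCA library (0.0596 to 0.105), without the filter (0.0694) and with the replicate block (0.063).

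DCA and CDCA differ in the position of a hydroxyl, and here all 6 genes were called, 5 higher and 1 lower with DCA, against backgrounds of 12.8% higher and 15% lower. Relative to CDCA, the differences were 2.26 for Fabp6 (95% CI 1.02 to 3.49, limma adjusted p = 0.0145), 1.52 for Slc51a (CI 0.54 to 2.51, adjusted p = 0.0273) and 1.55 for Slc51b (CI 0.77 to 2.32, adjusted p = 0.00818). They were 1.06 for Abcc2 (CI 0.76 to 1.35, adjusted p = 0.000613), 0.47 for Abcc3 (CI 0.21 to 0.72, adjusted p = 0.011) and -0.93 for Abcc4 (CI -1.42 to -0.44, adjusted p = 0.00911). Calls for Slc51b, Abcc2 and Abcc4 held in each of the 20 alternatives. The call for Slc51a was lost without CDCA library 1 or 2 or any DCA library (adjusted p of 0.0513 to 0.0898), and in a fit of only the 6 libraries compared (0.0548). Those for Fabp6 (0.0563 to 0.0571) and Abcc3 (0.0518 to 0.0537) were lost without CDCA library 2 or DCA library 2.

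**Figure D3:**
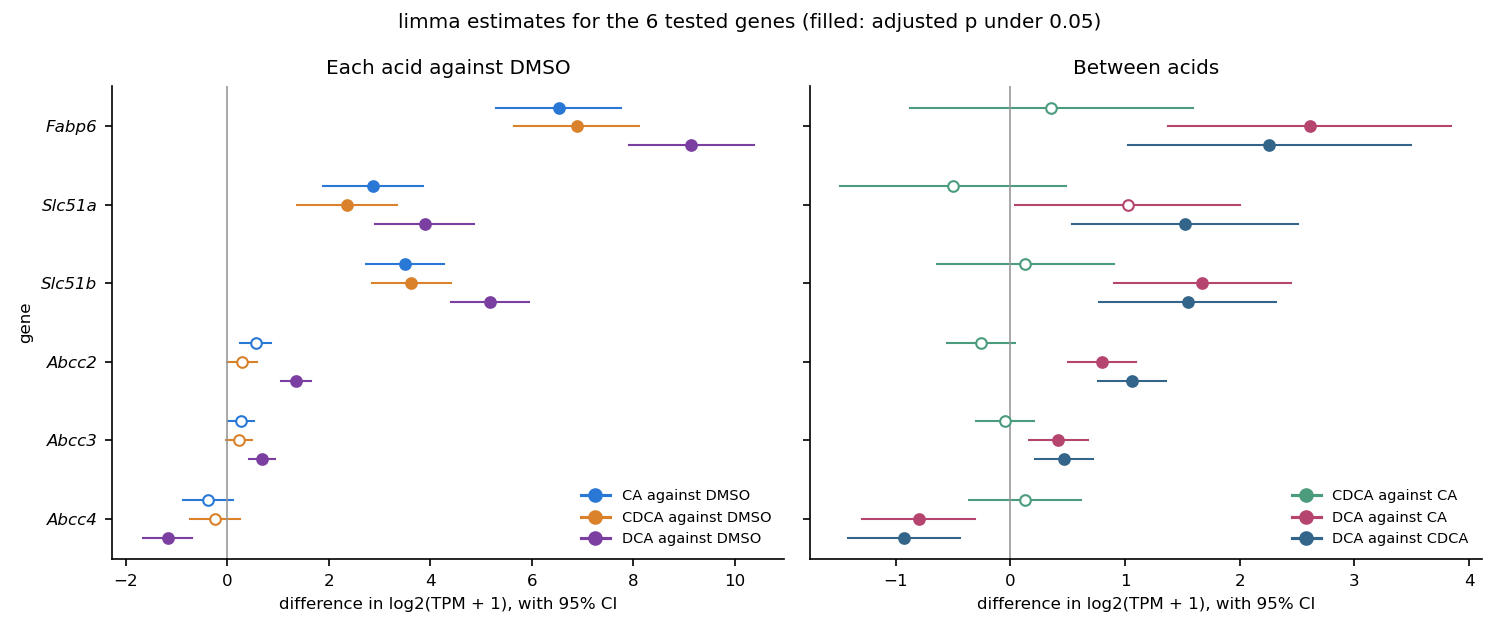
Difference in log2(TPM + 1) with its 95% CI from limma for the 6 tested genes, each acid against DMSO (left) and between acids (right), with filled points for an adjusted p under 0.05. Fabp6 has the largest differences (6.53, 6.89 and 9.14), Abcc4 alone is called lower (-1.18 with DCA), and no CDCA against CA point is filled.

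Markers of absorptive enterocytes were called with DCA. Of 20 enterocyte markers, DCA raised 18 and lowered 0 (median 1.36), and 0 were called with CA or CDCA (medians 0.63 and -0.050). Their sum was 2314 to 3730 TPM in DMSO, 3654 to 5515 in CA, 2507 to 3996 in CDCA and 6577 to 8706 in DCA. Of 14 stem cell markers, DCA lowered 13 and raised 0 (median -1.56), and 0 were called with CA or CDCA (medians -0.46 and -0.14). The stem cell markers summed to 589 to 1180 TPM in DMSO, 445 to 595 in CA, 401 to 899 in CDCA and 200 to 227 in DCA. Over all tested rows, 18.8% were called higher and 19.2% lower with DCA, and 0.569% and 0.51% higher with CA and CDCA. In these bulk libraries, more cells of a type and more RNA per cell cannot be told apart. Set against the mean of the 20 enterocyte markers in the same library, on the log2(TPM + 1) scale, Fabp6 was at -4.92 ± 0.676 in DMSO, 1.00 ± 0.343 with CA, 2.02 ± 0.711 with CDCA and 2.97 ± 0.129 with DCA (mean ± SD over 3 libraries). Slc51a was at -4.37 in DMSO and between -2.11 and -1.73 in the acid groups, and Slc51b at -4.22 and between -1.33 and -0.29. For these 3 genes all acid libraries stayed above all DMSO libraries on this scale. The share of all tested rows that separate in this way was not computed. Abcc2 was at -0.52 ± 0.296 in DMSO and -0.42 ± 0.0970 in DCA, with overlapping libraries. Abcc3 was at -0.67 ± 0.336 in DMSO and -1.24 ± 0.0420 in DCA, and Abcc4 at -3.86 ± 0.790 and -6.29 ± 0.0802. The mean of the markers was itself 6.22 in DMSO and 7.47 in DCA. A gene with unchanged TPM therefore lies lower with DCA on this scale. Abcc3 itself rose by 0.69 with DCA, which was less than the marker mean rose. The part of the change in cell markers in the transporter results was not tested.

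**Figure D4:**
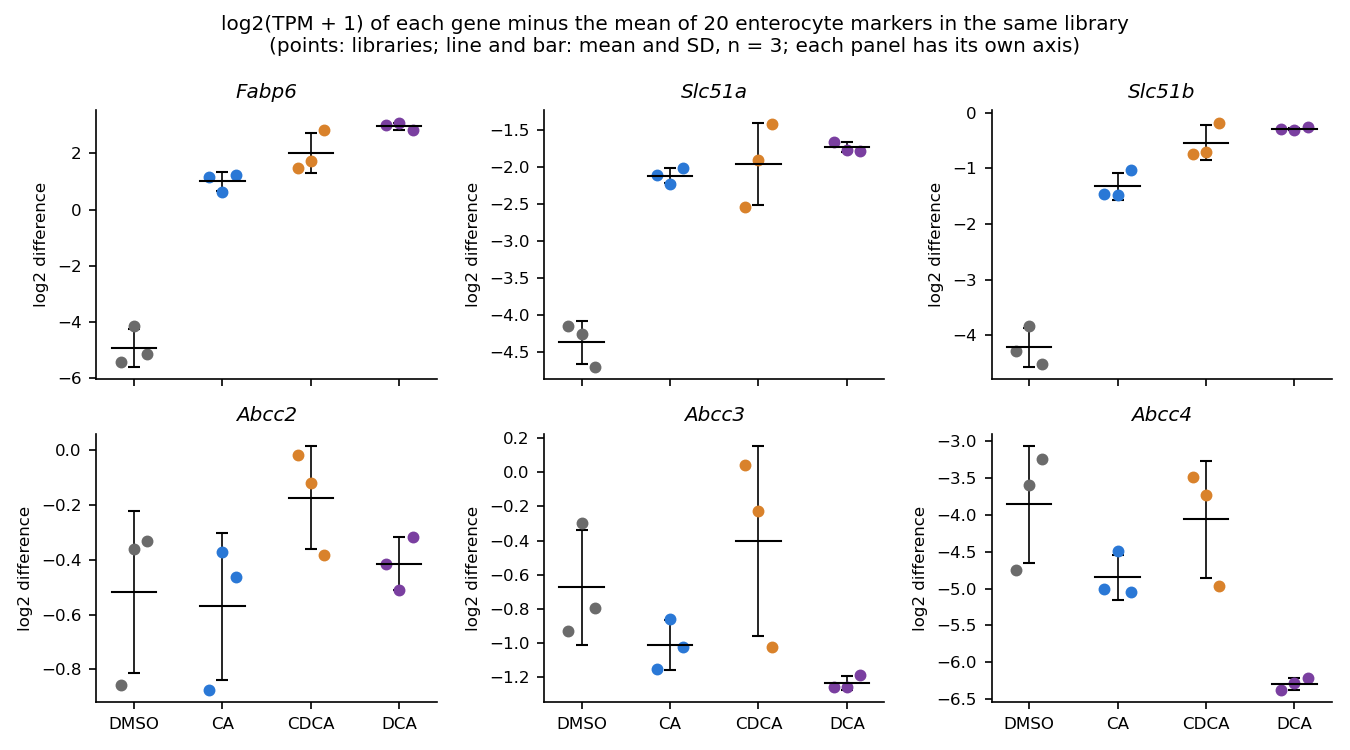
Difference in log2(TPM + 1) between each tested gene and the mean of 20 enterocyte markers in the same library, with mean and SD of 3 libraries and a separate axis per panel. Fabp6, Slc51a and Slc51b stay above DMSO with every acid, and Abcc2 in DCA (-0.42) overlaps DMSO (-0.52). Abcc3 (-1.24 against -0.67) and Abcc4 (-6.29 against -3.86) lie lower with DCA. The marker mean itself is higher in DCA (7.47) than in DMSO (6.22).

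The counts that follow for related genes stand against the DCA backgrounds of 18.8% higher and 19.2% lower, and of 0.569% and 0.51% higher with CA and CDCA. Of 6 other members of the Slc10 family, 3 were tested and DCA raised 1, Slc10a5, by 0.68 (limma adjusted p = 0.0273), to 2.76 TPM from 1.38. The hepatic importer Slc10a1 was listed at 0 in every library. Of 12 organic anion transporters of the Slco family, 3 were tested and DCA raised 1, Slco2b1, by 1.35 (limma adjusted p = 0.000422), from 12.9 ± 2.33 to 34.4 ± 5.26 TPM. Of 8 other Abcc genes, 6 were tested, and DCA raised Abcc10 (0.79, adjusted p = 0.000579) and lowered Cftr, the chloride channel (-0.36, adjusted p = 0.0117), and Abcc8, a subunit of a potassium channel (-0.48, adjusted p = 0.0273). The canalicular bile salt pump of the liver, Abcb11, was at most 0.0502 TPM. Of 7 other ABC exporters, 5 were tested and DCA raised 4: the sterol exporters Abcg5 (0.77) and Abcg8 (0.83), the drug pumps Abcg2 (0.78) and Abcb1a (0.37), with limma adjusted p of 0.00214, 0.000794, 0.00822 and 0.0357. With CA and CDCA, 0 tested genes were called in each of these 4 lists.

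The lipid-binding relatives of Fabp6 had smaller differences from DMSO than Fabp6 itself. Of 14, 5 were tested, and DCA raised 3 and lowered 1, with 0 called for CA or CDCA. Fabp1, the liver-type fatty acid binding protein, rose by 1.86 (limma adjusted p = 0.000576), Rbp2, a retinol carrier, by 1.39 (adjusted p = 0.0048), and Fabp2, the intestinal form, by 0.58 (adjusted p = 0.0487). Fabp5 fell by 0.80 (adjusted p = 0.0074). Fabp1 and Fabp2 are also in the enterocyte list. In TPM, which is per length, Fabp6 in DCA (1411) stayed below Fabp1 (3668) and above Fabp2 (206). Of 6 scaffold genes of the apical membrane, 4 were tested and DCA raised 1, Pdzk1, an adaptor that binds transporter tails, by 2.68 (adjusted p = 0.000151), while CA gave 1.21 (adjusted p = 0.13) and CDCA 0.74 (adjusted p = 0.5).

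**Figure D5:**
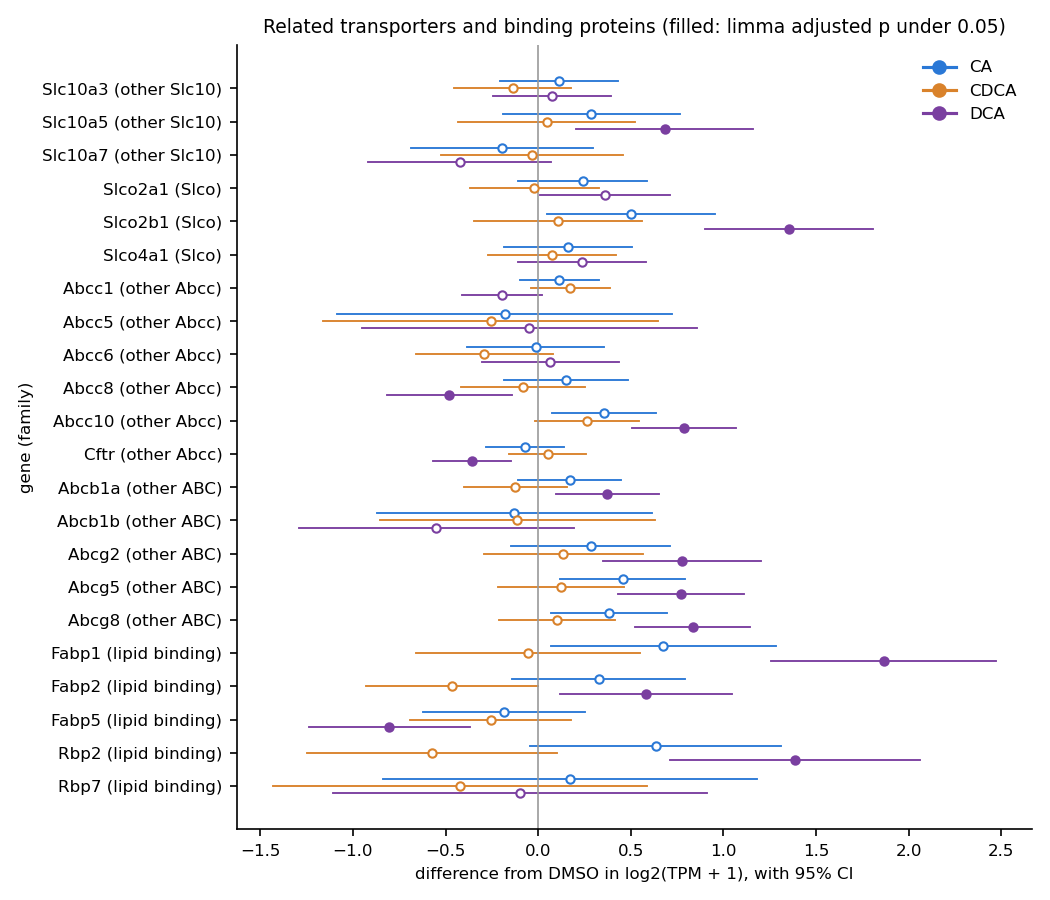
Difference from DMSO in log2(TPM + 1) with its 95% CI from limma for the 22 tested genes of related families, with filled points for an adjusted p under 0.05. Filled points occur only for DCA, from Fabp5 at -0.80 to Fabp1 at 1.86.

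Genes with profiles most like those of the members were ranked by the root mean square difference in log2(TPM + 1) over the 12 libraries, centred on the DMSO mean. For Slc51a, Slc51b and Fabp6 the nearest gene outside the set was Fgf15, the enterocyte hormone that represses bile acid synthesis, at 0.694, 1.31 and 4.26, followed by the aldo-keto reductase Akr1b7 at 0.748, 1.58 and 4.55. The next was the amino acid transporter Slc6a20a for Slc51a (0.971) and Slc51b (1.89), and the carboxylesterase Ces1f for Fabp6 (4.85). The subunits were 0.975 apart from each other, and Fabp6 was 2.99 from Slc51b, its nearest member. Fgf15 had mean levels of 1.84, 9.63, 21.0 and 27.2 TPM in DMSO, CA, CDCA and DCA. FXR itself, Nr1h4, differed by 0.87 with DCA. Of 9 bile acid receptor and FXR feedback genes, 7 were tested, and DCA raised 6, against 18.8% of all tested rows. With CA and CDCA only 1 of the 7 was called higher, against 0.569% and 0.51%. In both cases it was Fgf15 (limma adjusted p = 0.0135 and 0.000663), so the feedback gene Nr0b2 was tested but not called with either. For Abcc2 the nearest were Clec2e (0.0943), Exoc3l4 (0.114) and the brush border protease Mep1a (0.118). For Abcc3 they were Rbm47 (0.103), Cisd1 (0.107) and Mcfd2 (0.107). For Abcc4 they were Ercc6l (0.0983), the cell cycle regulator Ccnd1 (0.115) and the transcription factor Foxa1 (0.122). A gene with small changes finds near neighbours more easily than one with large changes, so these distances do not compare between members. The distance depends on the size of the changes as well as on their pattern. Even the nearest gene was far from Fabp6, which differed by 9.14 with DCA where Fgf15 differed by 3.31.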

How the data were processed

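For each library the authors deposited TPM values of 32587 gene rows, a unit inferred from the values. The submitters' processing notes name Salmon 1.8.0 and build GRCm39, and libraries marked the second strand with dUTP, per the labels' protocols. The sources used here do not give the annotation or the strand setting. Because depth cannot be read from TPM, no counting interval is given. Of 4802 rows with a mean of at least 20 TPM, 4 were listed at 0 in a library.

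Groups came from the labels. Rows that reached 1 TPM in 3 or more libraries were tested two-sided on log2(TPM + 1) by limma 3.58.1 (R 4.3.3), using 4 group means, robust moderation and a mean-variance trend. Benjamini-Hochberg adjustment ran over all tested rows within each of 6 comparisons. Ratios and sums used exact two-sided permutation tests over libraries. Code was tested on simulated data. The genes and lists were chosen with earlier results of these data known. Text names all 7 genes, up to 4 tested genes per list with the smallest p in DCA against DMSO, and 3 genes nearest to each called member. Other genes named as markers, for overlap or for the FXR pathway were chosen after their values were seen. Alternatives were the filter, scaling, pseudocount, replicate block, moderation, libraries fitted and each library left out.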

Additional observations from a re-analysis of the deposited data

How the results depend on the processing

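Calls of Fabp6 and Slc51b with CA and CDCA, and of all 6 tested genes with DCA, against DMSO held in each of 20 alternatives. On leaving out each library in turn, members called were 2 to 4 with CA, 2 to 3 with CDCA, 6 with DCA, 0 for CDCA against CA, 1 to 6 for DCA against CA and 3 to 6 for DCA against CDCA. Genes called over all rows were 2 to 261 with CA (69 as reported), 41 to 86 with CDCA (71), 3431 to 4896 with DCA (4545), 3 to 34 for CDCA against CA (4), 572 to 2256 for DCA against CA (1761), 2022 to 3943 for DCA against CDCA (3322) and 1939 to 3901 for any difference (3404). The summed level exceeded DMSO by 297 to 404 TPM with CA (336), 233 to 580 with CDCA (459) and 1574 to 1884 with DCA (1707).

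Without the filter 26 genes were called with CA, and 3 members for DCA against CA, with Abcc3 (adjusted p = 0.0642) and Abcc4 (0.0694) lost, and Slc51a lost its CDCA call (0.0795). Median-ratio scaling gave 29 with CA, and limma without trend or robust moderation 33. Without mitochondrial and rRNA rows, 45 were called with CA, 7 for CDCA against CA and 2727 for DCA against CA (23.9% of these higher, against 39.3%), and the summed level exceeded DMSO by 425 TPM with CA and 2092 with DCA; Abcc3 lost its DCA against CA call (adjusted p = 0.0506), and for DCA against CDCA 28.2% of calls were higher, against 46.1%. In fits of only the 6 libraries compared, counts were 42 with CA, 22 with CDCA, 2 for CDCA against CA and 3401 for DCA against CA, and Slc51a lost its CDCA call (adjusted p = 0.464) and its DCA against CDCA call (0.0548) and gained one for DCA against CA (adjusted p = 0.0072). Without Fabp6 the summed level exceeded DMSO by 97.9, 88.5 and 297 TPM. With CDCA library 3 and DMSO library 1 both left out (an alternative added after the data were seen), 966 genes were called with CA, 440 for CDCA against CA with 2 members (Slc51a at -1.05 and Abcc2 at -0.44), and 2830 for DCA against CA.

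Signs turned only in uncalled differences: Abcc4 with CDCA was 0.017 without DMSO library 3, and for CDCA against CA, Fabp6 was -0.33 and Slc51b -0.34 without CDCA library 3 and with both libraries out, Slc51b -0.11 without CA library 2, Abcc3 0.022 without CA library 1 and Abcc4 -0.0064 without CDCA library 1. Leaving out each library in turn, Abcc4 with CDCA ranged from -0.48 to 0.017, and for CDCA against CA Fabp6 from -0.33 to 0.77, Slc51b from -0.34 to 0.38, Abcc3 from -0.13 to 0.022 and Abcc4 from -0.0064 to 0.30. The cause was not tested. Same-numbered libraries did not deviate together (correlations from -0.378 to 0.109 over genes). The labels do not state whether they share a culture, animal or batch, and these correlations cannot settle it. With the replicate block, 45 genes were called with CDCA, and the Slc51a call with CDCA (adjusted p = 0.0946) and the Abcc4 call for DCA against CA (adjusted p = 0.063) were lost. Depth is unknown, so the precision of low values such as those of Slc10a2 cannot be stated.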

Other observations

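Of 14 genes of bile acid synthesis, mostly known as liver enzymes, 8 were tested, and DCA raised 3 and lowered 1, where 18.8% of all tested rows were called higher and 19.2% lower. Akr1d1, the reductase that saturates the steroid ring, was at 2.72 ± 0.833 TPM in DMSO, 0.536 ± 0.139 in CA, 0.607 ± 0.230 in CDCA and 0.307 ± 0.246 in DCA (SD, n = 3), and it fell by 1.26, 1.20 and 1.51 (limma adjusted p = 0.0202, 0.0168 and 0.000184). It was the only gene of this list called with CA. Over all 11952 tested rows, CA had 68 called higher and 1 called lower, which was Akr1d1. CDCA had 61 called higher and 10 lower. Acox2, a peroxisomal oxidase of the bile acid side chain, rose by 0.72 with CDCA (limma adjusted p = 0.0471) and by 0.79 with DCA (adjusted p = 0.00113). The peroxisomal genes Hsd17b4 and Scp2 rose by 0.72 and 0.51 with DCA (limma adjusted p = 0.00025 and 0.00239). Cyp7a1, the rate-limiting enzyme of bile acid synthesis in the liver, was at most 0.0151 TPM in any library.

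Of 6 markers of the proximal small intestine DCA raised 3, against the same DCA background, and 0 were called with CA or CDCA. With DCA, S100g, a calcium-binding protein, rose by 2.54, Slc40a1, the iron exporter, by 1.66, and Gata4 by 0.28 (limma adjusted p = 0.000278, 0.000488 and 0.0453). Among markers of the distal intestine other than the transporters, Amn differed by 0.34 with DCA and was not called (limma adjusted p = 0.243). Cubn, a receptor of the distal small intestine, was below the filter at 0.134 TPM in DMSO and 0.488 TPM in DCA.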
